A study of Mus musculus with 24 samples.

Results

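Wide H3K4me3 peaks free of H3K27me3 were defined as peaks at least 1500 bp wide (end minus start) in the H3K4me3 list of a tissue that overlapped no H3K27me3 island of the same tissue by 1 bp or more. The rule found 1489 such peaks among 16289 in mouse lens and 1303 among 15407 in mouse forebrain, or 2792 of 31696 H3K4me3 peaks in all, and they are called members below. Members were chosen by their own H3K4me3 width and H3K27me3, so those values are given as a description. Pol2, H3K27ac, H3K4me1, Pax6 and open chromatin were not used by the rule, and neither were the values of the other tissue. Each kind of library was deposited as 1 list per tissue, so no difference below has a replicate check and no test was run. Intervals are exact (Clopper-Pearson) 95% intervals for shares, cover counting error only, and treat as separate peaks that share 1 library.

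H3K4me3, trimethylation of lysine 4 of histone H3, marks active promoters and in most places forms a peak of about a kilobase around the transcription start. Some promoters carry wider domains, which are known from genes important to the identity of a cell. H3K27me3, deposited by Polycomb complexes, marks silenced genes, and where it lies together with H3K4me3 the region is called bivalent, a state common at developmental genes and one in which wide H3K4me3 also occurs. Removing peaks in H3K27me3 therefore leaves wide H3K4me3 without the repressive mark.

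The study compared lenses of newborn CD-1 mice at postnatal day 1 (P1) with forebrain of E12.5 CD-1 embryos, all of them without any stated mutation or treatment. Age differed with tissue, and the effects of the pair cannot be told apart. ChIP-seq, which sequences the DNA bound by an antibody's target, covered H3K4me3, H3K27me3, H3K27ac, found at active promoters and enhancers, H3K4me1, found at enhancers and beside promoters, RNA polymerase II (Pol2), and Pax6, a transcription factor needed for the eye and the forebrain. FAIRE, a method that enriches DNA little bound by nucleosomes and so maps open chromatin, covered lens only, and RNA-seq covered forebrain, lens epithelium and lens fiber. The antibody and its lot were the same in both tissues for H3K4me3, H3K27me3 and Pol2. In the RNA tables all 12 lens markers had a higher RPKM in lens epithelium than in forebrain and all 12 forebrain markers had a higher one in forebrain, while the summed RPKM of 3 blood genes was 5200 in forebrain, 173 in epithelium and 3.78 in fiber, and that of 3 endothelium genes was 14.4, 27.4 and 0.561 in the same order. Whether blood or endothelial cells took part in any value below was not tested. The peak lists give no read depth. The H3K27me3 islands held 9.40 M ChIP reads in forebrain (25473 islands, 185.1 Mb) and 3.42 M in lens (31034 islands, 123.6 Mb), and the Pol2 list held 3332 peaks in lens and 1704 in forebrain. In whole tissue a mark carried by few cells and a weak mark carried by all cells cannot be told apart. Genes at these positions were not analysed here, and regions are named by mm9 position.

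Members were a small share of the peaks and a larger share of the marked sequence. In lens 1764 peaks (10.8%) reached 1500 bp, of which 275 (15.6%) lay in lens H3K27me3, leaving members as 9.14% of peaks (8.70% to 9.59%). In forebrain 1698 (11.0%) reached that width and 395 (23.3%) lay in forebrain H3K27me3, leaving 8.46% (8.02% to 8.91%). Members covered 2.91 of 13.99 Mb of lens H3K4me3 (20.8%) and 2.55 of 13.19 Mb in forebrain (19.3%). Their widths were close in the tissues. The lens median was 1789 bp (quartiles 1619 and 2077 bp), with 457 members of at least 2000 bp, 71 of at least 3000 bp and a widest of 6961 bp. The forebrain median was 1779 bp (1619 and 2068 bp), with 373 of at least 2000 bp, 60 of at least 3000 bp and a widest of 7873 bp. The limit cuts a continuous range: in each tissue the 3 peaks nearest below it were 1499 bp wide and the 3 nearest above it 1500 or 1501 bp, with fold enrichments of 12.4 to 31.3 inside and 11.6 to 30.8 outside. With peaks at most 500 bp apart merged before the width was read, there were 2589 lens and 2187 forebrain members.

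Member peaks were also taller. The authors' fold enrichment at the summit had a median of 20.2 at lens members, 12.02 at narrower lens peaks free of H3K27me3 and 14.4 at wide lens peaks within H3K27me3. The forebrain medians were 19.7, 12.2 and 13.6. Across all free peaks width and fold enrichment went together, with a Spearman rho of 0.730 over 13778 lens peaks and 0.724 over 11572 forebrain peaks. Among the members alone the relation was nearly absent in lens (rho 0.077) and weak in forebrain (0.174). Both measures come from the same library, so these values are a description.

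At the limit of 1500 bp, more members than not were wide and free in both tissues. Of the lens members 866 (58.2%, 55.6% to 60.7%) overlapped a forebrain member, against 9.41% of all lens H3K4me3 peaks. Of the forebrain members 869 (66.7%, 64.1% to 69.3%) overlapped a lens member, against 11.5% of all forebrain peaks. The share was higher in forebrain, which had fewer members; with the 1303 widest free peaks taken in both tissues it was 61.01% in lens and 61.24% in forebrain. The shares depend on the limit, and at a minimum width of 2000 bp they were 47.5% (42.8% to 52.2%) in lens and 58.2% (53.0% to 63.2%) in forebrain. An H3K4me3 peak of any width in the other tissue overlapped 1477 lens members (99.2%) and 1297 forebrain members (99.5%), and such a peak was also common over all H3K4me3 peaks (86.7% of lens peaks and 92.1% of forebrain peaks). Of the lens members that did not overlap a forebrain member, 395 (26.5% of all lens members) met a narrower free forebrain peak, 114 (7.66%) a wide peak within forebrain H3K27me3, 102 (6.85%) a narrower one within it, 11 lay in forebrain H3K27me3 with no peak, and 1 had neither. The corresponding forebrain members numbered 379 (29.1%), 21 (1.61%), 28 (2.15%), 3 and 3.

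By the rule both peaks of an overlapping pair of members are at least 1500 bp wide, so sites that were wide in 1 tissue only are left out and the pairs are given as a description. At the 869 overlapping pairs of members the median width was 1847 bp in lens and 1841 bp in forebrain, and the median log2 ratio of lens to forebrain width was 0.0031 (quartiles -0.09 and 0.10). In 547 pairs (63.0%) the widths lay within 10% of each other, in 48 they differed by at least 1.5 times, and of these 28 were wider in lens and 20 in forebrain. The edges differed by a median of 70 bp, the summits lay 71 bp apart, and 90.6% of the joined length was common to both peaks. Across the pairs the Spearman rho was 0.606 for width and 0.666 for fold enrichment. Among the 5 widest sites in both tissues, ranked by the smaller width, chr5:22937557-22942872 was 5316 bp in lens and 5694 bp in forebrain, chr19:5796684-5802649 was 5966 and 5485 bp, chr13:29040744-29045517 was 4774 and 4924 bp, and chr10:36855469-36860715 was 5247 and 4532 bp. Over all members with a peak in the other tissue, a choice on width in 1 tissue favours a smaller width in the other, so the medians are given side by side and nothing is read from their order. Lens members had a median of 1788 bp in lens and 1660 bp in forebrain (95% interval of the median 1632 to 1683 bp), and forebrain members 1777 bp in forebrain and 1678 bp in lens (1644 to 1705 bp).

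**Figure D1:**
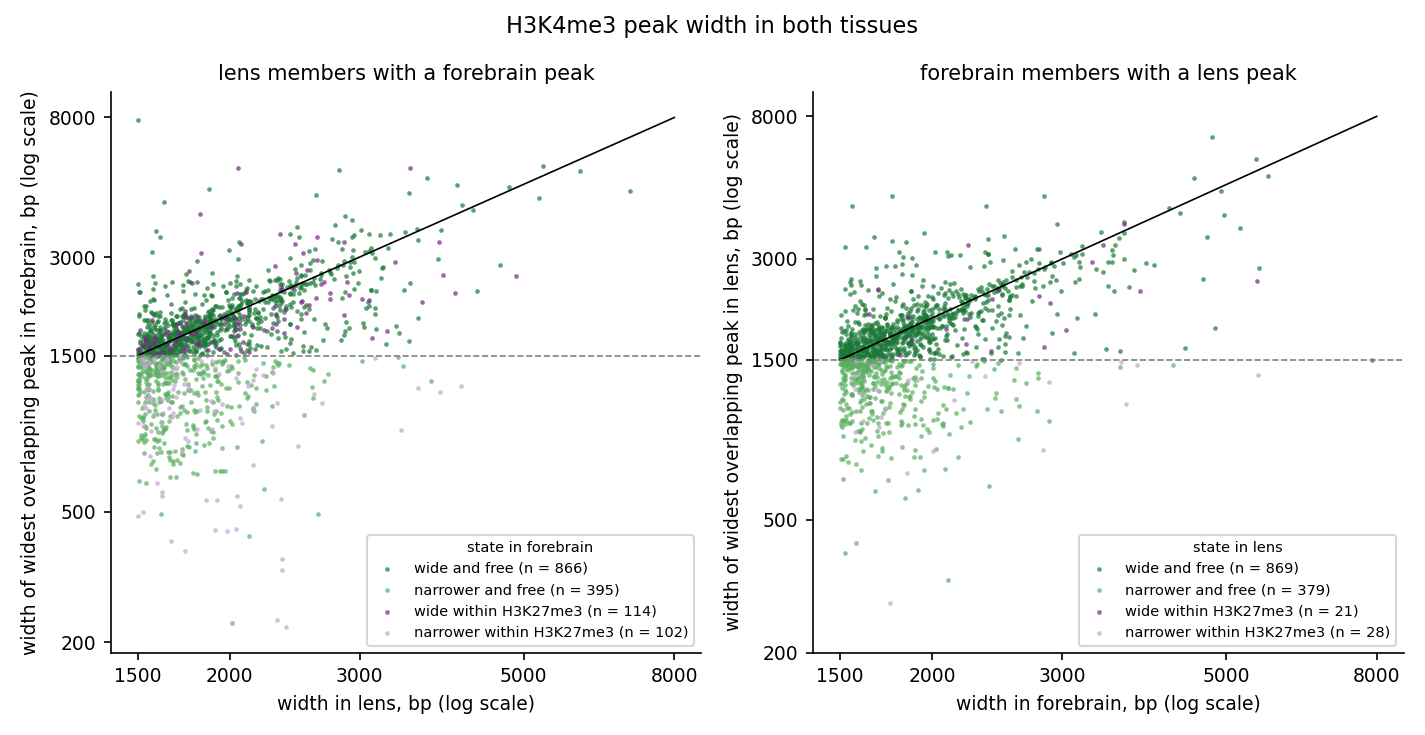
Each point is a member that overlaps a peak of the other tissue, with its own width on the x axis and the width of the widest overlapping peak of the other tissue on the y axis (bp, log scales); the line marks equal width, the dashed line 1500 bp, and colour the state in the other tissue. Sites wide in both tissues follow the line, with a median log2 ratio of 0.0031, and the narrower ones spread below 1500 bp.

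Sites wide in 1 tissue and narrower but free in the other fell below the limit by a modest amount. At the 395 lens members of this kind the forebrain peak had a median of 1247 bp (quartiles 997 and 1390 bp), and 195 of them were still at least 1250 bp wide. At the 379 forebrain members the lens peak had a median of 1277 bp (1060 and 1427 bp), with 203 at 1250 bp or more. With the 2 ends of each site ordered by reach, the lens member reached a median of 480 bp past the forebrain peak at its longer end. At its shorter end it reached 21 bp, and the forebrain member reached 413 and 15 bp past the lens peak. Which end is longer is set by this ordering, and the reach was taken from the widest peak of the other tissue only. Often the other tissue held a second peak under the member. At 185 of the 395 lens members (46.8%) and 147 of the 379 forebrain members (38.8%) at least 2 peaks of the other tissue lay under the member, and from the first to the last base of these peaks the span reached 1500 bp at 149 (37.7%) and 130 (34.3%). A broken call and a gap in the mark cannot be told apart in a peak list.

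The largest contrasts in width were few. The widest forebrain member, chr5:111845240-111853112, was 7873 bp wide with a fold enrichment of 23.2, and its widest lens peak was 1502 bp wide (18.2), so it still met the rule in lens. At chr15:66798879-66801265 a lens member of 2387 bp (20.2) met a forebrain peak of 222 bp (5.05) within forebrain H3K27me3, a ratio of 10.75, and it held 2 lens Pol2 peaks and no forebrain one. At chr7:80520415-80522514 a forebrain member of 2100 bp (19.9) met a lens peak of 331 bp (6.59), a ratio of 6.34. Members at least 2 times as wide as the widest peak of the other tissue numbered 108 in lens (7.31% of those with a peak) and 69 in forebrain (5.32%). Over all H3K4me3 peaks with a peak in the other tissue these shares were 4.55% and 2.70%, and the members had been chosen for their own width.

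Wider members were more often wide and free in the other tissue and less often narrower and free there. Among lens members of 1500 to 1999 bp, 53.7% were wide and free in forebrain, against 68.4% at 2000 to 2999 bp and 67.6% at 3000 bp or more. In forebrain these shares were 62.2%, 77.6% and 80.0%. The share that was narrower and free in the other tissue was lower at larger widths in lens (33.4%, 11.9% and 5.63%) and in forebrain (35.1%, 16.3% and 3.33%). The limit in the other tissue stayed at 1500 bp, so a wider member could differ more in width and still count as wide there. With the limit at 2000 bp in both tissues, 47.5% of lens and 58.2% of forebrain members were wide and free in the other. Overlap of the member itself with an H3K27me3 island of the other tissue was more frequent at larger widths for lens members (13.95%, 21.8% and 33.8%) and for forebrain members (2.90%, 5.43% and 16.7%), but a wider member has more room for an overlap. In a window of 250 bp either side of the H3K4me3 summit the lens shares were 7.07% (5.59% to 8.81%), 11.7% and 15.5% (7.996% to 26.03%), where the intervals of the first and the last width class overlapped. The forebrain shares in that window were 2.26%, 2.24% and 1.67% and were not higher at larger widths.

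**Figure D2:**
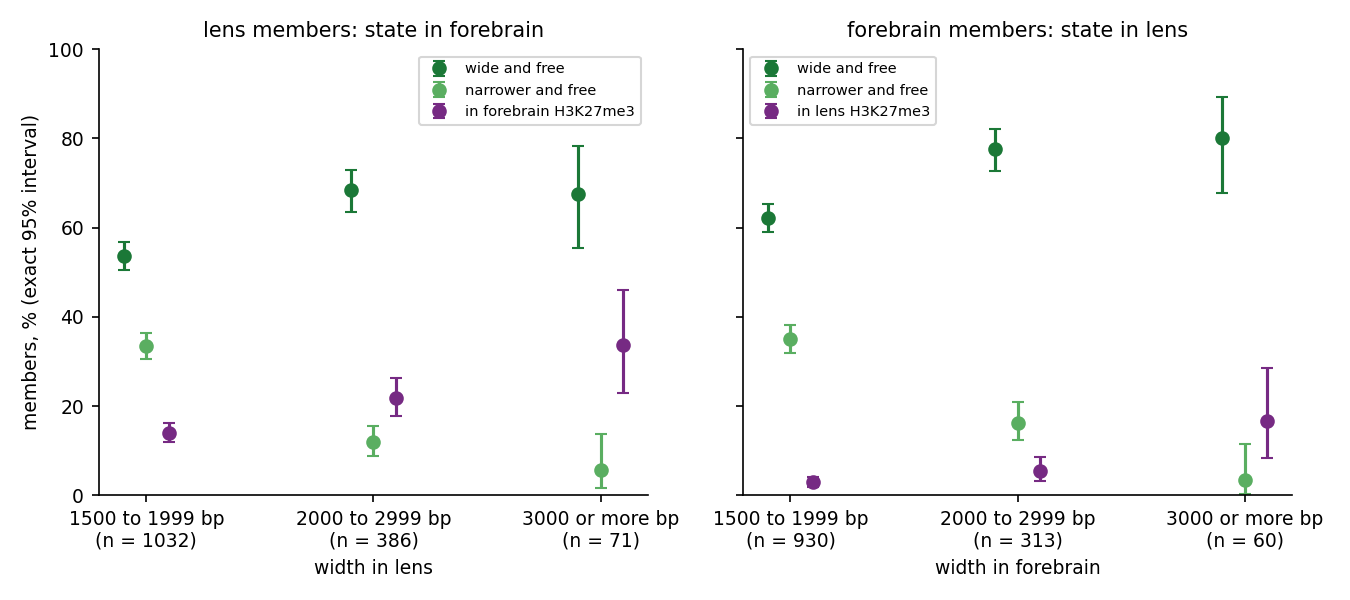
The y axis gives the share of members (%) in a state of the other tissue, by width class in their own tissue on the x axis, with exact 95% intervals. Between the first and the last class the share that is narrower and free is lower (33.4% and 5.63% of lens members, 35.1% and 3.33% of forebrain members). The limit in the other tissue is 1500 bp for every class. The share in H3K27me3 of the other tissue is read over the whole member, which offers more room for an overlap when it is wider.

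Lens members lay in forebrain H3K27me3 more often than forebrain members lay in lens H3K27me3. The counts were 252 of 1489 (16.9%, 15.1% to 18.9%) and 54 of 1303 (4.14%, 3.13% to 5.37%). Over all H3K4me3 peaks the same shares were 28% for lens peaks and 14.2% for forebrain peaks and both include peaks that carry H3K27me3 in their own tissue. Narrower free peaks, which like members carry none in their own tissue, stood at 16.9% in lens and at 2.57% (2.27% to 2.90%) in forebrain when the whole peak was read, as it was for the wider members. In the window around the summit, which is equal in size for all peaks, the share was 8.66% (7.28% to 10.2%) of lens members and 15.3% (14.6% to 15.9%) of narrower free lens peaks. In forebrain it was 2.23% of members and 2.11% of narrower free peaks. As given above, the forebrain islands held more reads and covered more sequence. With the 20000 islands of highest ratio in both tissues the member shares were 17.6% and 3.31%. Those islands still covered 158.4 Mb in forebrain and 89.03 Mb in lens, so the covered sequence was not made equal. Over all H3K4me3 peaks the shares under this setting were 26.7% for lens peaks and 12.25% for forebrain peaks. When the overlap had to cover 0.5 of the shorter interval the member shares were 8.06% and 2.92%. What part depth had in the difference was not tested.

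At lens members inside forebrain H3K27me3 the repressive mark covered a median of 48.6% of the member's length and the whole of it at 62. Of these 252 members, 205 (81.4%) also overlapped forebrain H3K27ac and 237 (94.1%) lens H3K27ac. Lens Pol2 lay at 66 (26.2%) and forebrain Pol2 at 35 (13.9%). Over all lens H3K4me3 peaks forebrain H3K27ac lay at 73.3%, lens H3K27ac at 69%, lens Pol2 at 19.2% and forebrain Pol2 at 9.56%. At the 54 forebrain members in lens H3K27me3 the island covered a median of 63.0% and the whole member at 10. Lens H3K27ac overlapped 37 of them (68.5%) and forebrain H3K27ac 53 (98.2%), while forebrain Pol2 lay at 12 (22.2%) and lens Pol2 at 4 (7.41%). Over all forebrain H3K4me3 peaks these shares were 70.2%, 78.4%, 10.3% and 20% in the same order. Inside the member, a forebrain H3K27ac peak and a forebrain H3K27me3 island shared at least 1 bp at 149 of the 252 lens members (59.1%). Lens H3K27ac and lens H3K27me3 did so at 26 of the 54 forebrain members (48.2%). At the other members that overlapped both marks these lay on separate stretches, and in whole tissue marks carried by different cells cannot be told apart from marks on the same chromatin.

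Forebrain H3K27me3 with no forebrain H3K4me3 peak was found at 11 lens members, a group set by these forebrain states. None of the 11 overlapped forebrain Pol2 or forebrain H3K27ac, while 10 overlapped lens H3K27ac and 5 lens Pol2. Over all lens peaks forebrain Pol2 lay at 9.56%, forebrain H3K27ac at 73.3%, lens H3K27ac at 69% and lens Pol2 at 19.2%. With so low a forebrain Pol2 share, its absence from 11 sites says little. The widest of the 11 was chr17:86012800-86018581, 5782 bp wide with a fold enrichment of 15.2, with 3 lens Pol2 peaks and 1 lens H3K27ac peak. It belonged to the longest run of members, 4 lens members between 86010727 and 86025732 on that chromosome. The next, chr3:55586448-55590554, was 4107 bp wide (23.7) and held 1 lens Pol2 peak, a lens Pax6 peak of fold enrichment 12.8 and a forebrain Pax6 peak of 5.70. The third, chr5:35731553-35735471, was 3919 bp wide (22.9) with 2 lens H3K27ac peaks and no Pol2 in either tissue. In the other direction the 6 forebrain members with no lens H3K4me3 peak were narrower, at most 2778 bp, and none held a Pol2 peak of either tissue. Over all forebrain peaks forebrain Pol2 lay at 10.3% and lens Pol2 at 20%, so 6 sites are too few to read. The widest forebrain members in lens H3K27me3 had a lens peak: chr9:41387809-41393334 was 5526 bp wide in forebrain (20.2) and 1353 bp in lens (11.5), with a forebrain Pax6 peak of 6.08, and chr12:28021850-28027359 was 5510 bp (28.5) and 2570 bp (13.6).

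Members carried Pol2, the enzyme that transcribes protein-coding genes, more often than other free peaks. Lens Pol2 peaks overlapped 669 lens members (44.9%, 42.4% to 47.5%), 19.5% of narrower free peaks and 19.2% of all lens H3K4me3 peaks. Forebrain Pol2 overlapped 457 forebrain members (35.1%, 32.5% to 37.7%), 9.73% of narrower free peaks and 10.3% of all forebrain peaks. Wide peaks within H3K27me3 were low, at 12.4% in lens and 13.7% in forebrain. A wide peak has more room for an overlap, so the shares were also read in a window of 250 bp either side of the H3K4me3 summit. There lens members still stood at 26.5% (24.2% to 28.8%) against 17.7% of narrower free peaks, and forebrain members at 20.7% (18.6% to 23.0%) against 8.78%. In lens this share no longer went up with width beyond 1000 bp: it was 27.2% at 1000 to 1499 bp, 27.2% at 1500 to 1999 bp, 25.4% at 2000 to 2999 bp and 21.1% at 3000 bp or more. In forebrain it was 13.2%, 19.6%, 22.7% and 28.3% in the same classes. Per kilobase of H3K4me3, lens members held 0.245 Pol2 peaks and narrower free lens peaks 0.267, while forebrain members held 0.199 and narrower ones 0.133. Members took 21.4% of the whole lens Pol2 list and 29.6% of the forebrain list.

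H3K27ac lay at nearly every member. In lens 1462 members (98.2%, 97.4% to 98.8%) overlapped a lens H3K27ac peak, against 72.8% of narrower free peaks and 69% of all lens peaks. In forebrain 1290 members (99.0%, 98.3% to 99.5%) did, against 82.3% and 78.4%. In the summit window the shares were 96.0% against 72.1% in lens and 96.8% against 81.8% in forebrain, in the same order. Over the whole peak, wide peaks within H3K27me3 stood at 86.55% in lens and 95.95% in forebrain. Free peaks of 1000 to 1499 bp stood at 94.7% and 96.5%, so a high share was not particular to members. The acetylated part was a median of 67.0% of the member's length in lens and 69.6% in forebrain. Of the acetylated members, 46.8% in lens and 26.6% in forebrain held more than 1 H3K27ac peak, and a wide peak has more room for several. Per kilobase of H3K4me3, lens members held 0.773 H3K27ac peaks and narrower free lens peaks 1.076. In forebrain these values were 0.652 and 1.166. The H3K27ac fold enrichment of the peaks in members had a median of 7.52 in lens, against 5.65 for the rest of the list, and 11.5 against 6.26 in forebrain. That rest was not limited to H3K4me3 peaks, so this is no comparison with narrower H3K4me3 peaks. Only 27 lens members and 13 forebrain members had no H3K27ac peak of their own tissue, and none of these had Pol2.

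**Figure D3:**
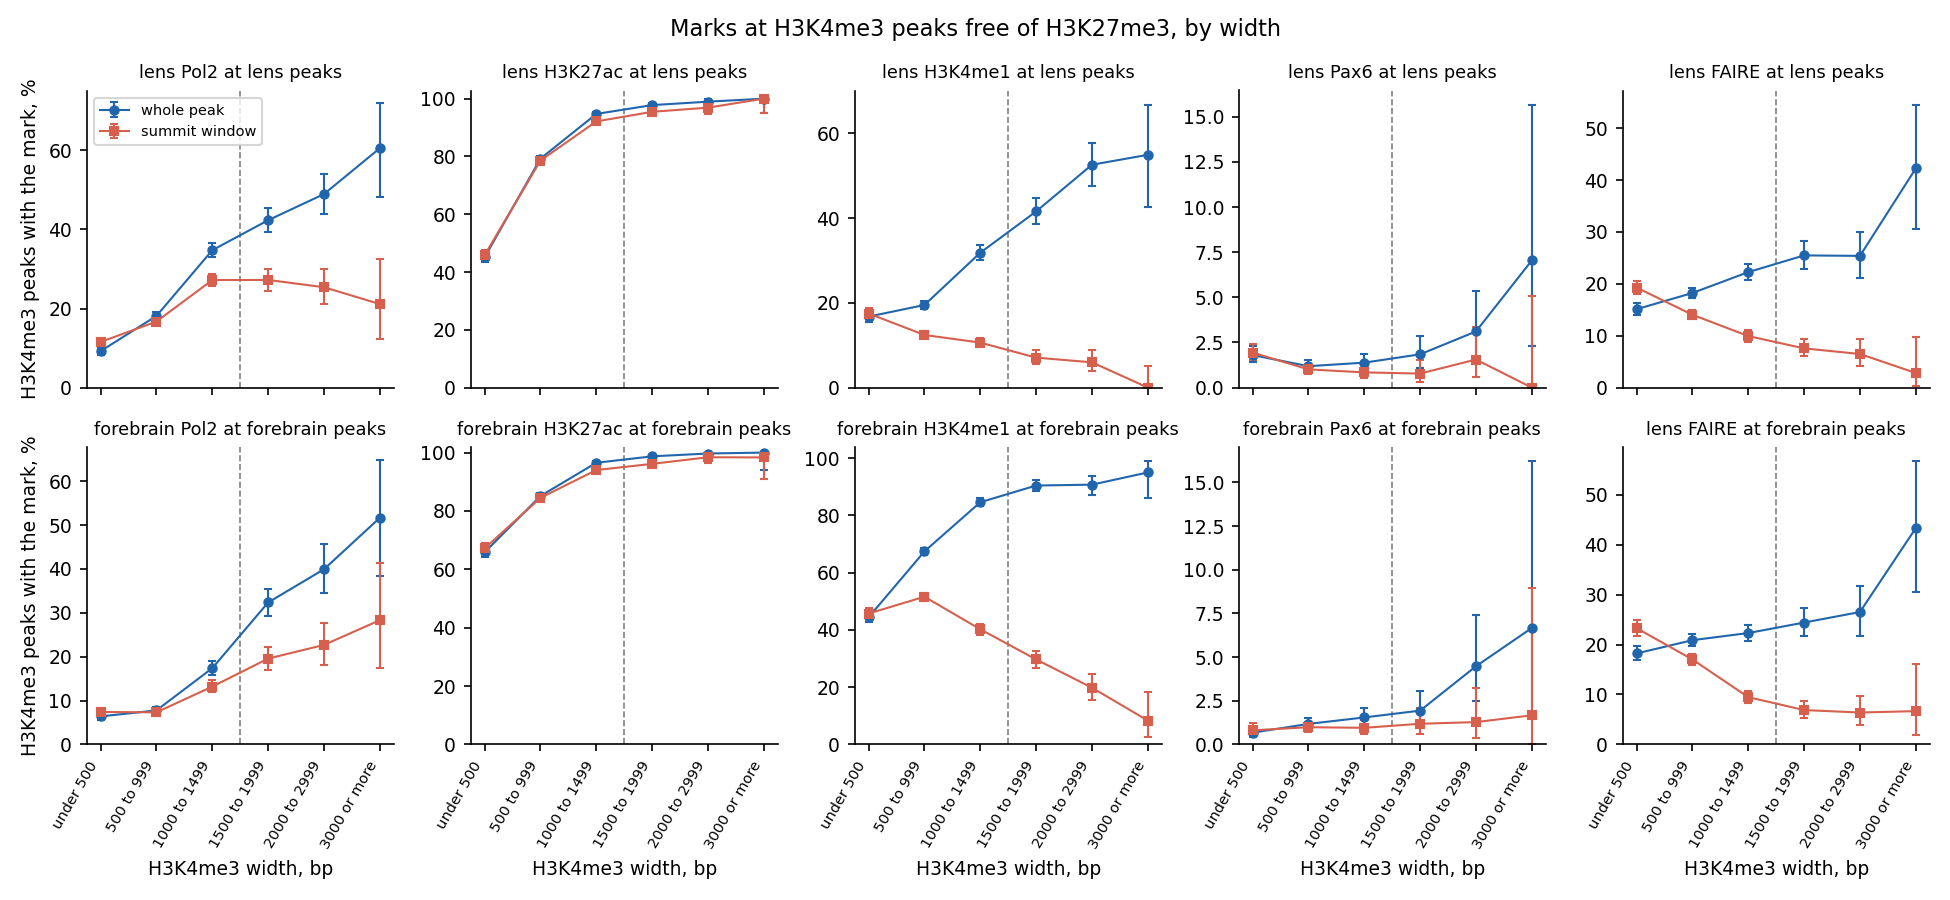
Share of H3K4me3 peaks free of H3K27me3 that overlap each mark (y axis, %, a scale of its own in each panel) by H3K4me3 width class in bp (x axis), over the whole peak in blue and within 250 bp of its summit in red, with exact 95% intervals; members lie right of the dashed line. Whole-peak shares are higher in the widest than in the narrowest class in every panel, while lens H3K4me1 and FAIRE near the summit fall with width at lens peaks.

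H3K4me1 and FAIRE were more frequent over the whole member and less frequent around its summit than at narrower free peaks. Lens H3K4me1 overlapped 45.1% of lens members against 21.7% of narrower free peaks and 23.6% of all lens peaks, but within 250 bp of the summit 6.45% against 13.5%. Forebrain H3K4me1 overlapped 90.7% of forebrain members against 64.97% and 65.8%, and 26.3% against 47.1% at the summit. The forebrain H3K4me1 list was the longer, with 40774 islands (145.6 Mb, 5.11 M ChIP reads) against 20811 in lens (74.08 Mb, 1.26 M). What part list length, depth or tissue had in the higher forebrain H3K4me1 shares was not tested. Lens FAIRE regions, the sites of open chromatin, overlapped 26.3% of lens members (24.0% to 28.6%) against 18.3% of narrower free peaks and 16.9% of all lens peaks, and at the summit 7.05% against 14.6%. At forebrain members, where FAIRE was measured in the other tissue, the shares were 25.8% against 20.5% and 17%, and 6.75% against 17.0% at the summit. In each of these cases the intervals of members and narrower free peaks did not overlap, in one order for the whole peak and in the opposite order for the summit. The window of 500 bp comes nearer to the edges of narrower free peaks, whose median width was 705 bp in lens and 715 bp in forebrain. At the peak centre lens FAIRE covered 4.30% of lens members and 4.74% of narrower free lens peaks, and 3.84% and 5.12% in forebrain. H3K4me1 covered 3.36% and 9.90% there in lens, and 14.4% and 35.1% in forebrain. What part the place of the window had was not tested.

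The layout inside and around the members shows where these marks lay. Around the centre of the peak, with both sides averaged, lens H3K4me1 covered 3.36% of lens members at the centre and 30.4% at 1800 bp from it. Forebrain H3K4me1 covered 14.4% of forebrain members at the centre and 63.2% at 1500 bp. Both distances lie past the edge of a member of median width. At 1500 bp H3K4me3 itself covered 13.5% of lens and 13.2% of forebrain members. FAIRE had its maximum of 7.42% at 1100 bp from the centre of lens members, past the edge of a member of median width, and of 7.72% at 500 bp in narrower free peaks. H3K27ac was highest at the centre, with 77.9% of lens members and 80.9% of forebrain members covered. Lens Pol2 was highest 100 bp from the centre, at 11.45%, while forebrain Pol2 stayed level across the member, with 5.99% at the centre and a maximum of 6.87% at 700 bp. From the H3K4me3 summit, the nearest H3K27ac summit inside the member was a median of 93 bp away in lens and 110 bp in forebrain, the nearest Pol2 summit 370 and 356 bp, the nearest FAIRE centre 564 and 620 bp and the nearest Pax6 summit 403 and 384 bp. The H3K4me3 summit itself lay 33.5% of the width from the nearer edge in lens members and 32.6% in forebrain members.

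**Figure D4:**
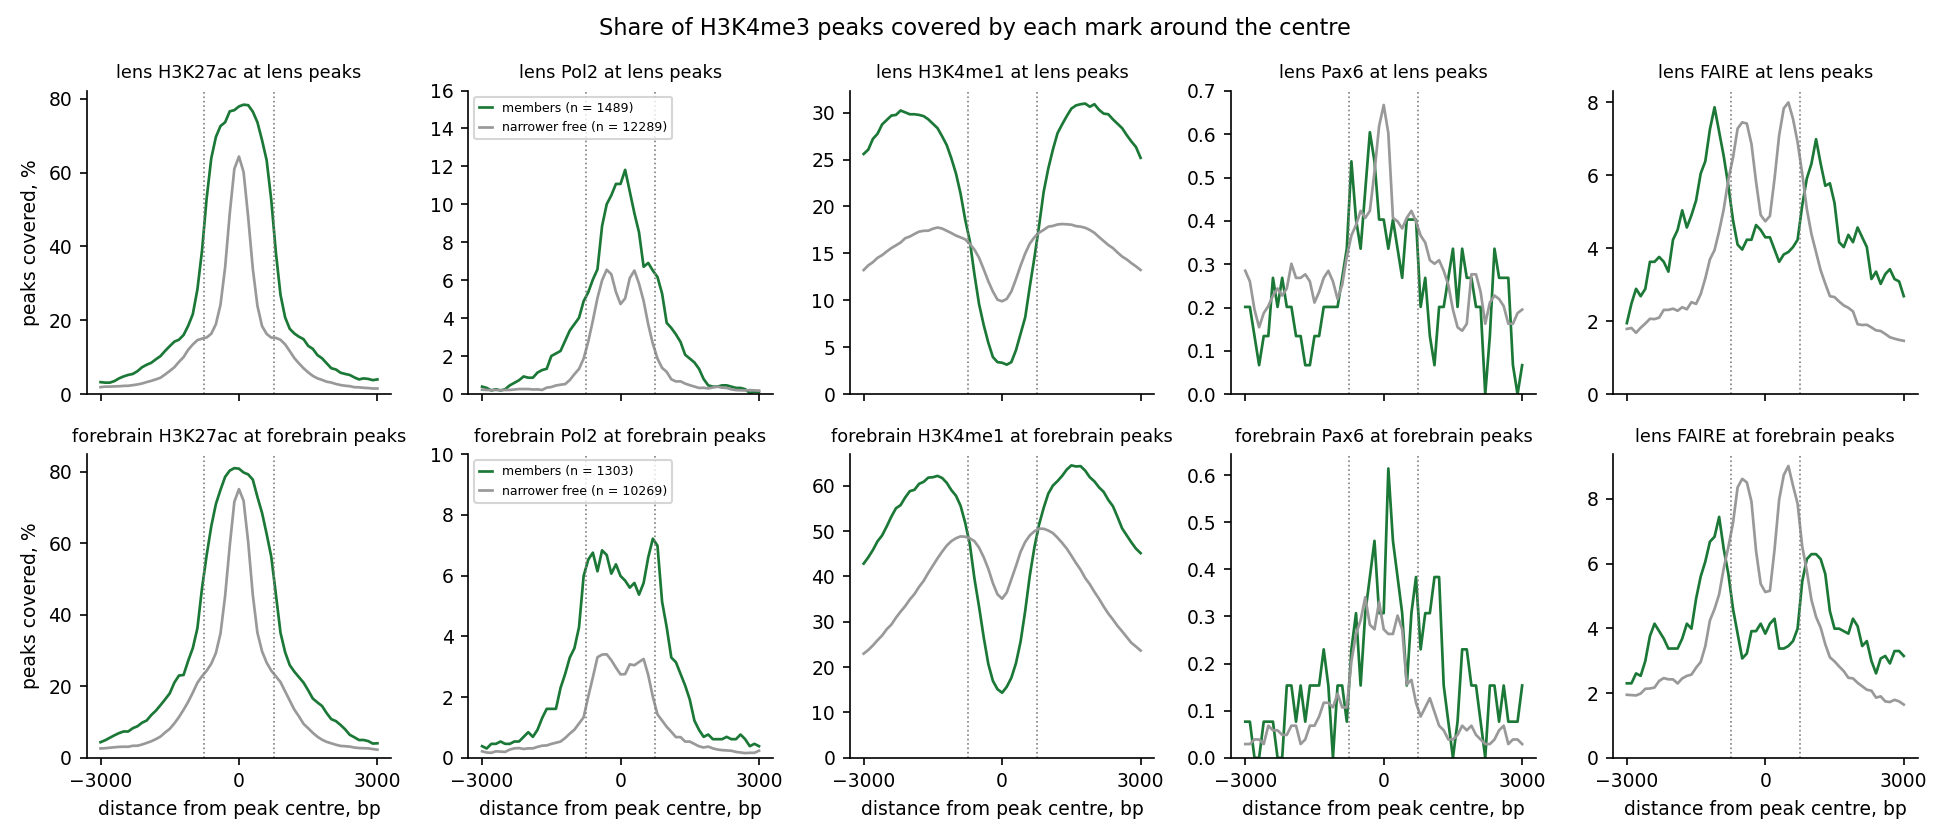
Share of H3K4me3 peaks (y axis, %, a scale of its own in each panel) covered by an interval of each mark at a distance in bp from the peak centre (x axis), for members in green and narrower free peaks in grey; dotted lines mark 750 bp either side, which every member covers. H3K27ac is centred, H3K4me1 has its minimum in the centre (3.36% of lens and 14.4% of forebrain members), and FAIRE is highest near the edges of the members.

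Pax6 was rare at the members. Lens Pax6 peaks overlapped 36 lens members (2.42%, 1.70% to 3.33%), 1.42% of narrower free peaks and 1.36% of all lens peaks. Forebrain Pax6 overlapped 36 forebrain members (2.76%, 1.94% to 3.81%), 1.12% of narrower free peaks and 1.3% of all forebrain peaks. Only the whole-peak intervals were apart, and near the summit the shares were 0.94% (0.52% to 1.57%) against 1.25% in lens and 1.23% (0.70% to 1.99%) against 0.93% in forebrain, with intervals that overlapped. Members of at least 2000 bp had Pax6 at 3.72% in lens and 4.83% in forebrain. The members took 0.996% of the lens Pax6 list's peaks and 1.02% of the forebrain list's. The strongest Pax6 peak in a forebrain member was at chr12:112812087-112814285, with a fold enrichment of 21.9 in forebrain and 12.8 in lens, and H3K4me3 there was 2199 bp wide in forebrain and 1558 bp in lens. At chr3:148650206-148653785, 3580 bp wide in forebrain and 3457 bp in lens, the Pax6 fold enrichments were 12.1 in forebrain and 12.2 in lens. The strongest in a lens member was at chr15:98814097-98816731, 15.1 in lens with no forebrain Pax6 peak, where the member was 2635 bp wide and its forebrain counterpart 492 bp.

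Marks of the other tissue were read at the same members. At lens members forebrain Pol2 stood at 29.1% (background over all lens peaks 9.56%), forebrain H3K27ac at 95.4% (73.3%), forebrain H3K4me1 at 87.7% (64.1%) and forebrain Pax6 at 3.22% (1.26%). At forebrain members lens Pol2 stood at 46.4% (background 20%), lens H3K27ac at 96.8% (70.2%), lens H3K4me1 at 47.2% (22%) and lens Pax6 at 1.69% (1.38%). Lens Pol2 was thus listed at more forebrain members than forebrain Pol2 was, and the lens list was the longer. What part list length, depth or tissue had in this order was not tested. With the 1704 lens Pol2 peaks of lowest q-value, the number in the forebrain list, lens Pol2 lay at 29.8% of forebrain members (27.3% to 32.3%) and forebrain Pol2 at 35.1% (32.5% to 37.7%), and at lens members the shares were 28.8% and 29.1%.

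Pol2 was most frequent where both tissues were wide and free. At the 866 lens members of this kind lens Pol2 lay at 52.4% (49.0% to 55.8%) and forebrain Pol2 at 37.5% (34.3% to 40.9%), and both at 279 of them (32.2%). At the 395 lens members that were narrower and free in forebrain the shares were 40.5% (35.6% to 45.5%) and 20.5% (16.6% to 24.8%), and at the 102 that were narrower within forebrain H3K27me3 they were 19.6% and 5.88%. At the 114 that were wide within forebrain H3K27me3 they were 26.3% and 18.4%. The forebrain Pol2 share at narrower and free sites was thus below that at sites wide in both, with intervals apart, and so was the lens share, although lens H3K4me3 was wide at all of them. The sites wide in both were also wider in lens, with medians of 1845 and 1656 bp, and within 250 bp of the lens summit lens Pol2 lay at 31.8% (28.7% to 35.0%) and 24.8% (20.6% to 29.4%) of them, with intervals that overlapped. At the 379 forebrain members that were narrower and free in lens, lens Pol2 lay at 38.5% (33.6% to 43.6%), against 52.1% (48.8% to 55.5%) of the 869 wide in both. Forebrain Pol2 there was 31.1% (26.5% to 36.1%) against 37.4% (34.2% to 40.7%), with intervals that overlapped. The 869 sites were also wider in forebrain than the 379, with medians of 1841 and 1659 bp, and so had more room for an overlap. Of the 28 forebrain members narrower within lens H3K27me3, 7 held forebrain Pol2 and 1 held lens Pol2. Within the shortened lens list, sites narrower and free in forebrain had lens Pol2 at 22.8% and forebrain Pol2 at 20.5%, and those narrower and free in lens had 21.9% and 31.1%.

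**Figure D5:**
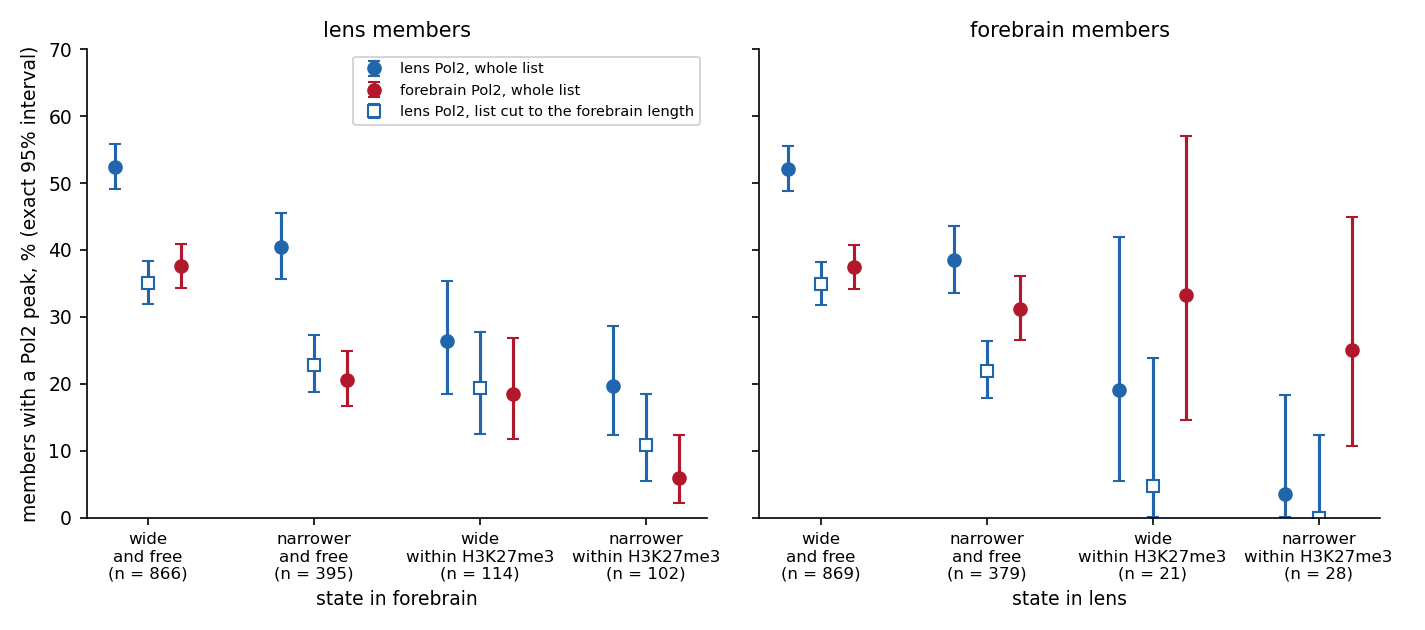
Share of members with a Pol2 peak (y axis, %) by their state in the other tissue (x axis), for lens Pol2 (blue), forebrain Pol2 (red) and lens Pol2 held to the 1704 peaks of lowest q-value (open squares), with exact 95% intervals. Both Pol2 lists are most frequent at lens members wide and free in both tissues, with 52.4% and 37.5%.

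Individual members held several Pol2 peaks. The lens member chr19:5796684-5802649 held 5 lens and 2 forebrain Pol2 peaks. The lens member chr5:143579773-143584046, 4274 bp wide and 4181 bp in forebrain, held 5 of each. The forebrain member chr11:106647985-106651428, 3444 bp wide with a lens peak of 1610 bp, held 3 of each. Width and Pol2 did not always go together: the widest lens member, on chromosome 18 with 6961 bp in lens and 4788 bp in forebrain, held no Pol2 peak of either tissue, and 3 lens FAIRE regions. Of the Pol2-bearing members 5.53% in lens and 9.41% in forebrain held at least 2, and a wide peak has more room for several. Per kilobase, as given above, Pol2 peaks numbered 0.245 in lens members and 0.267 in narrower free lens peaks. In forebrain these values were 0.199 and 0.133.

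Members were spread over the genome. On the 19 autosomes they were 9.38% of lens peaks (8.93% to 9.85%), from 7.34% on chromosome 6 to 12.1% on chromosome 12, and 8.65% of forebrain peaks (8.20% to 9.11%), from 7.41% on chromosome 6 to 11.2% on chromosome 19. The X chromosome was lower, with 11 of 530 lens peaks (2.08%, 1.04% to 3.68%) and 15 of 506 forebrain peaks (2.96%, 1.67% to 4.84%). More X peaks lay in H3K27me3, 22.8% in lens and 34.4% in forebrain, but among the free X peaks members were still 2.69% and 4.52%. Few members lay close together: 41 lens members in 19 runs and 36 forebrain members in 18 runs had a neighbour within 10 kb.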

How the data were processed

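Members, lists and alternatives were chosen with earlier results of these data known. Per the submitters' processing notes, the authors used mm9, MACS2 for peaks (H3K4me3, H3K27ac, Pol2, Pax6) and SICER for islands (H3K4me1, H3K27me3). Not given in the sources used here are which control went into a call and either caller's version. The deposited peak lists give a fold enrichment (a ratio to background) and a −log10 q-value per peak, with the largest q-value 0.00823 in lens and 0.00413 in forebrain H3K4me3. The deposited island lists give read counts of ChIP and control and a p-value or FDR, and the list names give, per the labels, a 200 bp window, a 600 bp gap and 0.001 as the FDR. The FAIRE list gives positions only, as deposited. RPKM per gene was computed by the authors, with TopHat2 and Cufflinks 2 named in the processing notes, and served here only to check tissue markers. The forebrain Pax6 list covers 2 libraries.

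Lines with equal start and end were counted as 1 peak, with the highest fold enrichment. Overlap meant at least 1 bp. The width in the other tissue was that of its widest overlapping peak. A summit window was 250 bp either side of the H3K4me3 summit. Named regions were taken by rule, from the widest members, those widest in both tissues, those without a peak or within H3K27me3 in the other tissue, those of largest width ratio, and those with the strongest Pax6 or most Pol2 peaks. Positions are 1-based. Python 3.11.15 with numpy 2.4.6, pandas 2.3.3 and scipy 1.17.1 was used. The overlap code was tested on simulated data, where all 7 planted answers were recovered, and gave the same count as bedtools 2.31.1 in 22 of 22 comparisons of the lists. The input libraries were not used here.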

Additional observations from a re-analysis of the deposited data

How the results depend on the processing

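Of 120 values that the alternatives gave for 16 results, 72 stayed within the exact interval of the reported value, or within 1.5 times for a count. Part of these could hardly move, so the count is no measure of robustness. Leaving out members in islands with control reads per kb over 10 times the list median removed 2 lens members and 0 forebrain members. Taking equal numbers of widest free peaks left the 1303 forebrain members as they were. Equal mark lists left forebrain Pol2, forebrain Pax6 and lens H3K27ac uncut, since those were the shorter lists. With a minimum width of 2000 bp there were 457 lens and 373 forebrain members, of which 47.5% and 58.2% were wide and free in the other tissue, with median widths there of 2103 and 2126 bp. At that width Pol2 lay at 50.8% and 41.8%, H3K27ac at 99.1% and 99.7%, Pax6 at 3.72% and 4.83%, lens FAIRE at 29.2% of forebrain members, and H3K27me3 of the other tissue at 23.6% and 7.24%. With peaks merged over gaps of at most 500 bp there were 2589 and 2187 members, 67.9% and 80.4% of them wide and free in the other tissue (medians there 1803 and 1857 bp), with FAIRE at 33.4% and 34.7% and forebrain Pol2 at 31.9%. With equal numbers of widest free peaks, 61.01% and 61.24% were wide and free in the other tissue, and the lens members had a median of 1700 bp in forebrain. The span of all overlapping peaks gave medians of 1742 and 1760 bp. Without islands within 1000 bp, 15.04% of lens members lay in forebrain H3K27me3. When an overlap had to cover 0.5 of the shorter interval, lens Pol2 lay at 42.1%, FAIRE at 18.5% and 18.04%, and H3K27me3 of the other tissue at 8.06% and 2.92%. In the summit window Pol2 lay at 26.5% and 20.7%, H3K27ac at 96.0% and 96.8%, Pax6 at 0.94% and 1.23%, and FAIRE at 7.05% and 6.75%. Mark peaks with a −log10 q of at least 5 gave Pol2 at 40.5% and 31.7% and lens H3K27ac at 97.1%. Equal numbers of mark peaks gave lens Pol2 at 28.8% and forebrain H3K27ac at 97.5%.

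The difference between members and narrower free peaks reversed in the summit window for lens Pax6 (-0.30 percentage points), FAIRE (-7.56 at lens and -10.2 at forebrain members) and H3K4me1 (-7.04 and -20.8), and for H3K4me1 also under the 0.5 overlap (-6.19 and -20.4). These 2 settings and the merged peaks were run for it, and Pol2 and H3K27ac kept their sign in all of them. H3K4me1 islands had a median width of 3000 bp in both tissues, more than a member of median width. Under the 0.5 overlap a wider H3K4me3 peak thus mostly needed more covered bases, so nothing is read from the H3K4me1 reversal in that setting. The cause was not tested, beyond the equal length of the window in both groups. The span, the islands of equal number and the differences from narrower peaks were added after seeing the data. No paired analysis was possible because only the input and Pax6 titles carry replicate numbers and each peak list is 1 per tissue. For the same reason no library could be left out. Without read depth in the peak lists, a missing peak was not shown to be an absent mark.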
